A study of Rattus norvegicus with 8 samples.

Results

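To follow the sympathetic nerve supply in whole-artery RNA, 30 genes of noradrenergic neurons were examined among the 37209 genes counted in injured and undamaged rat carotid arteries. They were chosen because they stood out in control artery 4, injured artery 3 and injured artery 1, so their levels in these libraries are given as a description, without a test. All 30 were found in the count table by symbol. The animals were male Sprague-Dawley rats weighing 400 g on average, and their age was not stated. In the injured group the left carotid artery was dilated with an angioplasty balloon catheter, and in the control group the undamaged right carotid artery of the operated rats was taken. Each group held 4 arteries, harvested 2 weeks after surgery, and no genetic change or drug was named for either group. The controls thus came from animals that had also undergone anesthesia and surgery.

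Sympathetic neurons have their cell bodies in ganglia along the spine and neck, and their axons run in the outer coat of arteries. They make noradrenaline from tyrosine and release it with peptides and ATP onto vascular smooth muscle, which contracts through alpha-1 adrenoceptors and P2X1 channels. Most mRNA of a neuron lies in its cell body, and growth factors from the target tissue keep these neurons alive. In bulk RNA, fewer cells of a type and less RNA per cell cannot be told apart.

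The library totals lay between 11459632 and 16658089 counts. Levels are given as CPM, counts per 1000000 scaled with the TMM factors of edgeR, and 3 counts correspond to 0.167 to 0.246 CPM, a floor that covers counting error only. Control artery 4 stood apart, since its log2 CPM correlated with the other controls at 0.83 to 0.852 across genes, whereas those correlated with each other at 0.976 to 0.978. Its 8 smooth muscle genes had a median of 38.3% of their median level in the other controls, with a range of 36.3% to 43.7%. The labelled tissue was checked against its defining markers, and the smooth muscle genes Myh11 (2721 to 17800 CPM) and Acta2 (4084 to 15453 CPM) were abundant in all 8 libraries. An extraction note attached to the libraries names prefrontal cortex. Of 15 brain genes, 7 had at most 3 counts in every library, among them Gad2, Neurod6, Neurod2 and Olig2. Gfap, a filament of astrocytes that peripheral glia also make, had 20, 9, 17 and 385 counts in the controls and 825, 121, 3497 and 601 in the injured arteries. Camk2a, a kinase of central and other neurons, had 284 counts in control artery 4, 90 in injured artery 3 and 7 to 44 elsewhere. Gfap was not called with all 8 arteries, but was called higher after injury without control artery 4, at 6.06 on the log2 scale, and also without injured arteries 1 and 3 in addition, at 4.67. The part of brain tissue in any level was not tested.

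Among the genes described here, the promoters of Th, Slc18a2 and Scg2 share the palindromic cAMP response element TGACGTCA, through which CREB is known to act on neuronal genes. They are shown because they were the members found to hold this element, and most other members were high in the same libraries too. Dbh and Gal are shown beside them because Dbh had the largest count of all members in control artery 4 and Gal departed from the others. The sequences are those of RefSeq on GRCr8, cover the 250 bases before the annotated start and run 5′ to 3′ on the strand of the gene. Capitals mark TGACGTCA in the first 3, and the shorter core TGACG or its reverse complement CGTCA, which is contained in the full element, in the other pair.
Th, chr1:207508219-207508468, minus strand: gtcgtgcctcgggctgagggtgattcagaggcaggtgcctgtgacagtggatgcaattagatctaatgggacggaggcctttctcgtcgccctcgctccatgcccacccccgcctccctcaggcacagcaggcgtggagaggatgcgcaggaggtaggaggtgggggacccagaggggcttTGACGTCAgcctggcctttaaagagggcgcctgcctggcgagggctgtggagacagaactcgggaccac
Slc18a2, chr1:268399771-268400020, plus strand: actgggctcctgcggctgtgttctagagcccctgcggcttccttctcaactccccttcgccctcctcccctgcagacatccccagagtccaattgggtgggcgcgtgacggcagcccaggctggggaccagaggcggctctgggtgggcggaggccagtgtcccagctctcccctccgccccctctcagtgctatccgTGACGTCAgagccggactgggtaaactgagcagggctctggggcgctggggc
Scg2, chr9:88256867-88257116, minus strand: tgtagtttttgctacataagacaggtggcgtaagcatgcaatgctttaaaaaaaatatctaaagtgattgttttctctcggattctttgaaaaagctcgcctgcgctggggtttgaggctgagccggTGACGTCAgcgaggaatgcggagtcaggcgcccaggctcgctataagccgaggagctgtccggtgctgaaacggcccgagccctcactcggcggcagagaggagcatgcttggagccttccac
Dbh, chr3:30886078-30886327, plus strand: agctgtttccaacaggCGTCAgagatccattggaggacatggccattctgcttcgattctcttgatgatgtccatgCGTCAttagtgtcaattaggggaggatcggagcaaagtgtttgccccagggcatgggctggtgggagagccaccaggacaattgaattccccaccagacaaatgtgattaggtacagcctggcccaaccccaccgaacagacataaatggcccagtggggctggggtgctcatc
Gal, chr1:210084573-210084822, minus strand: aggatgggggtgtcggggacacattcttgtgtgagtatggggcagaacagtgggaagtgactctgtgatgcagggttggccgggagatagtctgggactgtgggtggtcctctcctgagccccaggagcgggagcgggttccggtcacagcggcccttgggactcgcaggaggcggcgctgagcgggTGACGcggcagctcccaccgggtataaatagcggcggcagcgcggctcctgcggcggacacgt

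The element began 69 bases before the start of Th, 52 before that of Slc18a2 and 123 before that of Scg2. Of the 30 genes, 22 had a promoter in the reference table, and 3 of them held TGACGTCA, against 1.59% of all 33469 promoters searched on both strands. The core TGACG stood in 7 of the 22, against 18.2% of all promoters. These matches describe letters in the sequence and not binding.

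The enzymes and transporters of noradrenaline were read most often in control artery 4. Th, tyrosine hydroxylase, which catalyzes the rate-limiting step of catecholamine synthesis, had 8, 1, 6 and 14315 counts in control arteries 1 to 4 and 209, 3, 3795 and 5 counts in injured arteries 1 to 4. Dbh, which converts dopamine to noradrenaline, had 6, 4, 11 and 48101 counts in the controls and 591, 5, 6696 and 9 in the injured arteries. Slc6a2, the noradrenaline reuptake transporter, had 30, 16, 36 and 25384 counts in the controls and 368, 6, 4275 and 4 in the injured arteries. For each of these genes, control artery 4 was the highest, injured artery 3 the second and injured artery 1 the third, and the groups overlapped. Ddc, the decarboxylase that forms dopamine, reached 512 CPM in control artery 4 against at most 1.11 CPM in the other controls, and 91.3 CPM in injured artery 3. Slc18a2, the vesicular monoamine transporter, reached 674 CPM in control artery 4 and 158 CPM in injured artery 3. Its other levels were 1.08, 0.00 and 0.485 CPM in controls 1 to 3, 12.8 CPM in injured artery 1, and 8.40 and 7.68 CPM in injured arteries 2 and 4. Gch1, which starts the synthesis of the tetrahydrobiopterin that Th needs, varied far less, from 0.983 CPM in control artery 2 to 32.0 CPM in control artery 4.

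**Figure D1:**
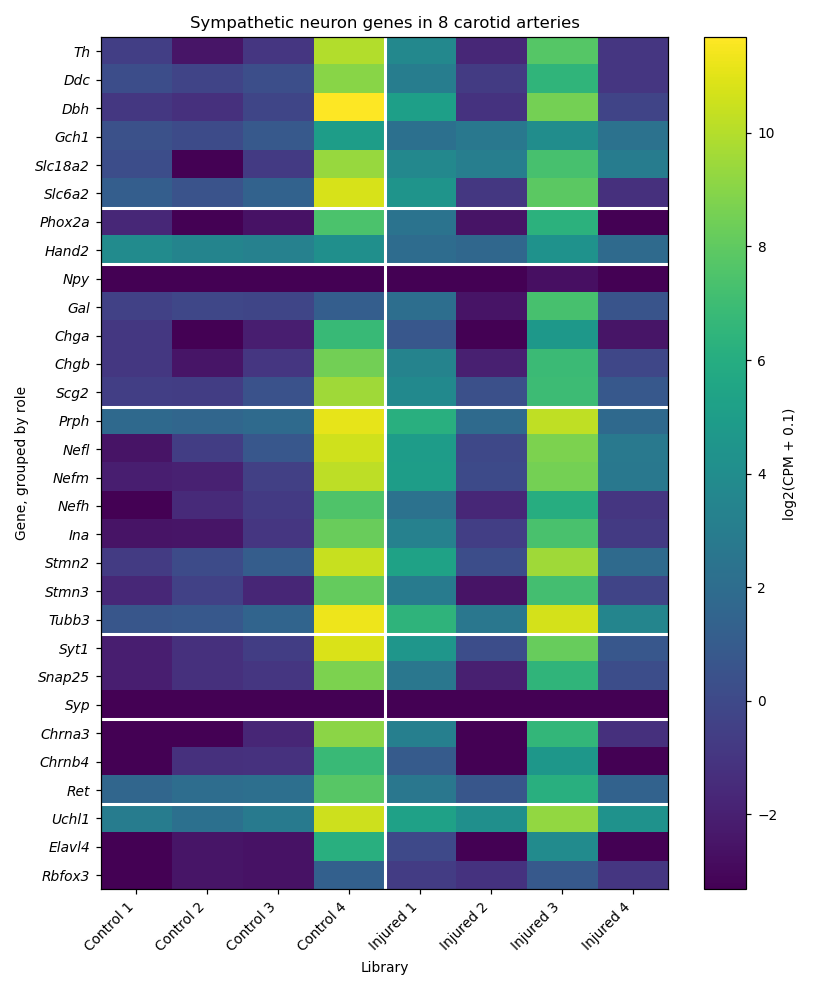
Heatmap of log2(CPM + 0.1) of the 30 sympathetic neuron genes (rows, grouped by role with white lines between roles) in the 4 control and 4 injured arteries (columns). Control artery 4 is the brightest column, followed by injured artery 3 and injured artery 1, while Npy and Syp are dark in every library and Gal is bright in injured artery 3 only.

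Both transcription factors of the list act in the specification of noradrenergic neurons, but their levels differed between libraries in different ways. Phox2a, a homeodomain factor that drives Dbh and Th, had 3, 0, 1 and 2485 counts in the controls and 87, 1, 1436 and 0 in the injured arteries. Hand2, a basic helix-loop-helix factor that is also known from the heart and other mesoderm, had 14.9, 10.7, 9.42 and 17.4 CPM in the controls and 3.88, 3.19, 19.9 and 3.51 CPM in the injured arteries. Hand2 was thus present in every library, and injured artery 3 rather than control artery 4 was its highest.

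Of the peptides and granins, Chga, Chgb and Scg2, acidic proteins of dense-core vesicles, had 110, 355 and 761 CPM in control artery 4 and 25.8, 120 and 123 CPM in injured artery 3. Gal encodes galanin, a peptide known to rise in sympathetic and sensory neurons when their axons are cut. It had 9, 10, 11 and 31 counts in the controls and 71, 1, 2855 and 17 in the injured arteries. Gal was, like Hand2, highest in injured artery 3, but by far more, with 159 CPM there against 2.12 CPM in control artery 4. Npy, the co-transmitter neuropeptide Y, was listed with a single count in injured artery 3 and 0 in the other 7 libraries.

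Synaptophysin, Syp, was listed at 0 in all 8 libraries, although Syt1, the calcium sensor of vesicle release, had 27147 counts and Snap25, a fusion protein, 6177 counts in control artery 4. Syp lies on chromosome X. Of 609 X-linked protein-coding genes matched to RefSeq by symbol, 595 (97.7%) had no count in any library, against 9.63% of 16023 autosomal ones. The absence of Syp from these columns therefore says nothing about its mRNA. Syp was the only X-linked member, and Npy lies on an autosome.

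The cytoskeletal genes of peripheral neurons were also read most often in control artery 4, but injured artery 3 came closer to it. Tubb3, the neuronal beta-tubulin, had 21, 20, 39 and 36355 counts in the controls and 1454, 83, 30523 and 140 in the injured arteries. Prph, peripherin, the intermediate filament of peripheral neurons, had 48, 36, 52 and 33069 counts in the controls and 1201, 49, 22028 and 41 in the injured arteries. Stmn2, a microtubule-destabilizing protein of growth cones, had 7, 12, 29 and 19702 counts in the controls and 668, 15, 13138 and 44 in the injured arteries. The ratio of injured artery 3 to control artery 4 was higher for these genes than for Dbh or Slc6a2. The neurofilament chains Nefl, Nefm and Nefh reached 1560, 1154 and 185 CPM in control artery 4 and 428, 376 and 65.0 CPM in injured artery 3. Ina, alpha-internexin, and Stmn3, a relative of Stmn2, reached 310 and 285 CPM in control artery 4 and 165 and 145 CPM in injured artery 3.

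Chrna3 and Chrnb4, subunits of the nicotinic receptor by which ganglion neurons receive their input, had 7916 and 1699 counts in control artery 4 and 1759 and 432 counts in injured artery 3, with at most 5 counts in any other control. Ret, the receptor tyrosine kinase for GDNF family ligands, had a baseline of 3.02 to 4.36 CPM in control arteries 1 to 3 and reached 217 CPM in control artery 4. Uchl1, an abundant neuronal deubiquitinase, had 7.63, 4.59 and 6.78 CPM in controls 1 to 3 and 1461 CPM in control artery 4. Elavl4, a neuronal RNA-binding protein, had 1019 counts there and 269 in injured artery 3. Rbfox3, the NeuN antigen of many central neurons, had only 34 and 31 counts in these libraries.

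Over the 30 genes, control artery 4 was the highest library for 26 and injured artery 3 for 2, Hand2 and Gal. For 25 genes the order was control artery 4, injured artery 3 and injured artery 1, ahead of all others. Together the 30 genes took 2.29% of all counts in control artery 4 (335098 counts), 0.826% in injured artery 3 and 0.0544% in injured artery 1. In the other 5 libraries they took 0.00295% to 0.00863%. Apart from Hand2 and Uchl1, no member had more than 63 counts in control arteries 1 to 3.

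The libraries differed not only in the amount of these transcripts but also in their proportions. Among the 24 members with at least 1000 counts in control artery 4, the level in injured artery 3 lay between 11.4% and 68.5% of that in control artery 4. Across all 28 members with at least 30 counts there, the median was 32.5%. By role, the median was 19.7% for the 6 genes of noradrenaline synthesis, storage and reuptake, with Dbh at 11.4% (95% exact interval 11.1% to 11.7%, counting error only) and Slc6a2 at 13.7%. It was 52.0% for the 8 cytoskeletal genes, with Tubb3 at 68.5% (67.5% to 69.6%) and Prph and Stmn2 at 54.4% each. Syt1 and Snap25 had 16.1% and 21.6%. Phox2a was at 47.2%, and Gal was at 7518% (5285% to 11086%). No single scale factor thus related the members in these 2 libraries.

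Injured artery 1 held far less of these transcripts. Its levels were 1.07% to 3.49% of control artery 4 in the same 24 genes, and 5.10% to 11.2% of injured artery 3. On the log2 scale the SD over these genes was 0.54 for the ratio to control artery 4 and 0.31 for the ratio to injured artery 3, so its proportions varied less against the other injured artery. Gal in injured artery 1 was 200% of its level in control artery 4 and 2.66% of that in injured artery 3. Each of these is a comparison of single libraries, with no replicate behind it.

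**Figure D2:**
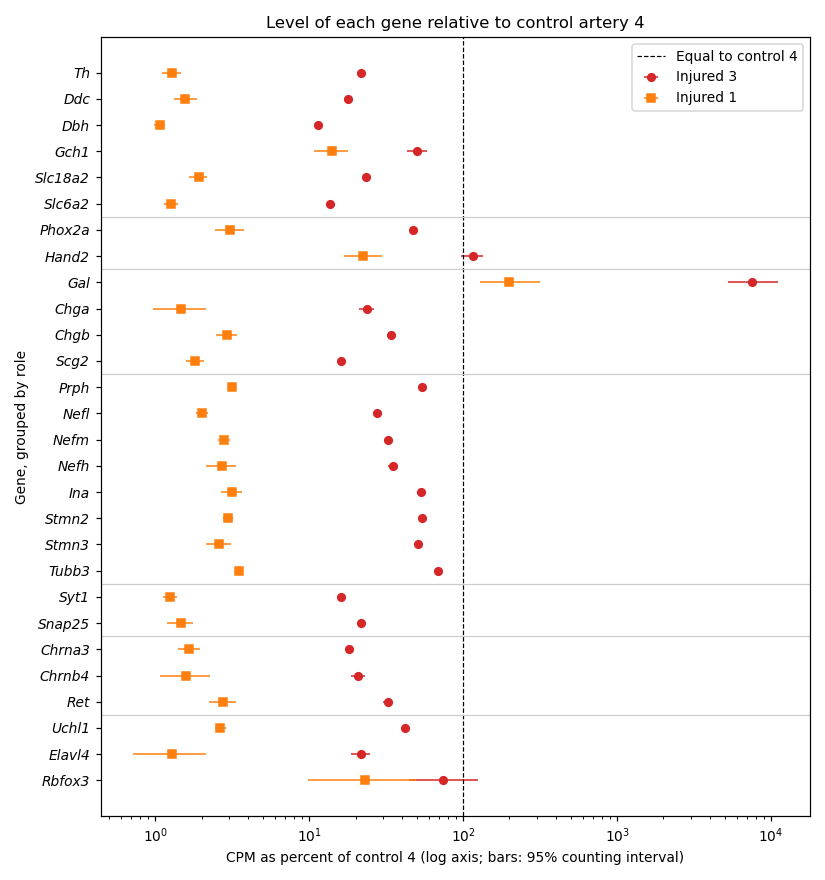
CPM of each member in injured artery 3 (red circles) and injured artery 1 (orange squares) as percent of control artery 4 on a log axis, for the 28 members with at least 30 counts there. Bars are 95% counting intervals, grey lines separate roles, and Gal at 7518% lies far to the right of Dbh at 11.4% and Tubb3 at 68.5%.

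Genes known to respond to axon injury were then read in the same libraries, from a list of 15 that was written after the values of Gal and others had been seen and therefore gets no test. Vip, vasoactive intestinal peptide, had 25 counts in control artery 4 and 382 in injured artery 3, which is 12.5-fold (8.32 to 19.5) in CPM. Adcyap1, the precursor of PACAP, had 279 and 1830 counts, or 5.35-fold (4.72 to 6.10). The transcription factor Sox11 was 15.9-fold and Atf3 5.90-fold as high. Sprr1a, a protein of regrowing axons, had 2 counts in control artery 4 and 111 in injured artery 3. Gap43, Tubb2b, Stmn4 and Basp1 were at 0.719 to 0.765 of control artery 4. Of 13 genes with more than 3 counts in control artery 4, Gal included, 9 were above 1-fold, with a median of 3.06-fold. Of these 9, Gal, Flrt3, Gadd45a, Jun and Atf3 were counted in every library, Gal with a single count in injured artery 2. Gadd45a, whose own ratio was this median, had 9.55 to 15.4 CPM in the controls and 19.2 to 46.5 CPM in the injured arteries. The median is therefore not set against that of the members. Atf3 and Jun had their highest levels, 448 and 1255 CPM, in control artery 1, where the 30 members had 565 counts in all.

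Neuronal genes outside the members were read in the same libraries, from lists chosen with earlier results of these data known. Of 19 other sympathetic genes found in the table, 17 exceeded each other control more than 3-fold in control artery 4, and 13 did so in injured artery 3 too. Hand1, a relative of Hand2, had 1462 and 607 counts in control artery 4 and injured artery 3. Cyb561, the electron carrier of vesicles that supplies Dbh, had 1116 CPM in control artery 4 and 21.4 to 35.9 CPM in the other controls. Of 30 further genes of neurons in general, 26 exceeded each other control more than 3-fold in control artery 4, and 22 did so in injured artery 3 too. Levels of these in injured artery 3 were a median of 38.2% of control artery 4, and those of the other sympathetic genes were a median of 25.8%. The share of all genes passing the 3-fold rule was not computed, so nothing is read from the counts of genes passing it.

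Across all genes with a mean of at least 1 CPM, the 15 whose log2 CPM over the 8 libraries was most like the mean of the members had Pearson's r of 0.994 to 0.999. They were Cdk5r2, Entpd3, Mapk8ip2, MAST1, Slc10a4, Hmx1, Myt1, Fbll1, Slc7a14, Ptprn2, Elavl2, Atcay, Jph4, Svop and Ppp2r2b. Slc10a4, a transporter of cholinergic and monoaminergic vesicles, had 219 CPM in control artery 4 and 62.1 CPM in injured artery 3. Hmx1, a homeobox gene of sympathetic neurons, had 63.4 and 19.5 CPM and no count in controls 1 to 3. These correlations rest on few high libraries and are given as a description.

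Markers of other neurons and glia were read beside them. Of 14 sensory neuron genes, Calca, Calcb, Pou4f1, Prdm12, Scn10a and Scn11a had at most 5 counts in every library. Trpv1, with 23 to 87 counts, and Mrgprd, with 8 to 42, were counted in every library. P2rx3 had 47 counts in control artery 4 and 4 to 19 elsewhere, and Avil reached 538 CPM in control artery 4 and 176 CPM in injured artery 3. Of the 5 sensory genes tested in an edgeR fit of all 8 arteries, Piezo2, a mechanosensitive channel, was called higher, with 46.8 against 3.30 CPM. Among 7 cholinergic genes, Chat had at most 3 counts, while the choline transporter Slc5a7 had 714 and 601 counts in these 2 libraries. Pnmt, the adrenaline-forming enzyme of chromaffin cells, had at most 2 counts. Kcnk9, a background potassium channel, had 296 and 119 counts. Nos1, an enzyme of nitrergic neurons, was called lower after injury as the only cholinergic list gene tested. Of 4 chromaffin and glomus cell genes tested, Kcnk3, Cox4i2 and Ndufa4l2 were called lower and Olr59 higher. The 14 Schwann cell and satellite glia genes summed to 319 to 1233 CPM in controls 1 to 3, 1305 CPM in control artery 4 and 557 to 2016 CPM in the injured arteries. Of 11 glial genes tested with all arteries edgeR called 0, with 2 at an unadjusted p under 0.05, and DESeq2 called 2, Egfl8 and Gfra3. Fabp7, a gene of satellite glia, had 87 counts in control artery 4, 48 in injured artery 3 and at most 1 elsewhere. Skeletal muscle genes summed to 82.5 to 253 CPM in the controls and 300 to 1084 CPM in the injured arteries, with 6 of 8 called higher, and injured artery 3 had the lowest sum among the injured. Thyroid and parathyroid genes summed to at most 3.48 CPM, with Pax8 called higher as the only gene tested, and B cell genes summed to at most 2.70 CPM and were not tested. Of 7 endothelial genes, Cdh5 and Kdr were called higher and Vwf lower, and of 4 brain genes tested Mog was called higher, at 1.38 against 0.252 CPM. In the edgeR fit of all 8 arteries, 8.31% of all genes were called higher and 2.57% lower. The part of each of these cell types in the levels of the members was not tested.

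**Figure D3:**
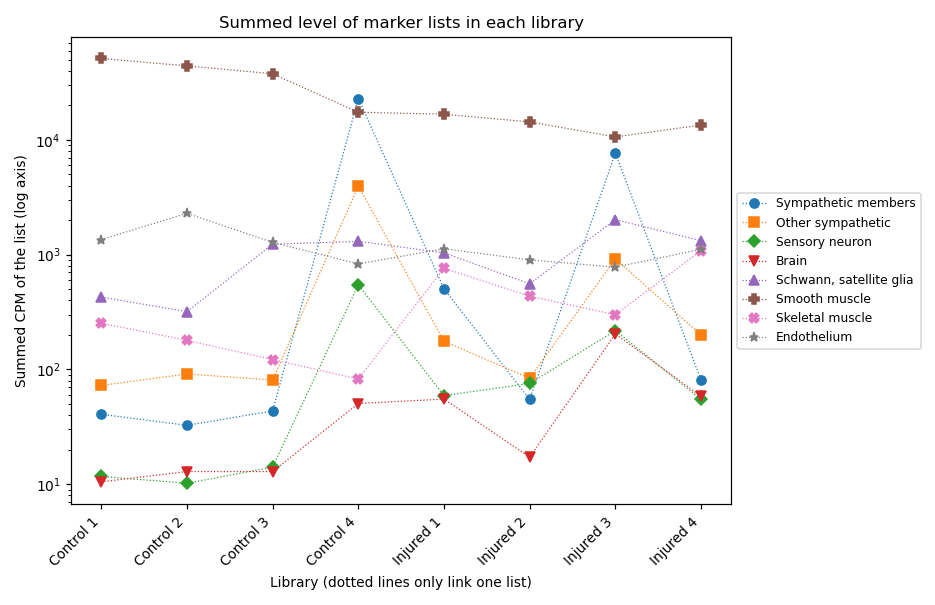
Summed CPM (log axis) of 8 marker lists in each library, with a dotted line joining the points of one list. The sympathetic members lie between 32.6 and 43.5 CPM in controls 1 to 3 and at 22905 CPM in control artery 4 and 7678 CPM in injured artery 3, while the smooth muscle list is at 37636 to 51155 CPM in controls 1 to 3 and at 17394 CPM in control artery 4.

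The comparison of all injured with all control arteries was then fitted over the whole table with edgeR's quasi-likelihood test, counting a gene as called at an FDR below 0.05 with more than a 2-fold difference. Of the 30 members 19 had enough counts for this fit and 0 were called, where 10.9% of all 14359 genes tested were called. At an unadjusted p under 0.05 there was 1 member, and DESeq2 also called 0, with an adjusted p for Hand2 only, where it called 9.61% of all genes higher and 3.30% lower. The rule used these libraries, so nothing is read from this count. The median log2 fold change of the 19 was -1.49, from -3.02 for Dbh to 5.23 for Gal, against -0.06 over all genes. Without control artery 4 the median was 6.43 and 18 of 19 were positive, so the sign of the group comparison turned with that artery. Of the 19, 7 were then called, all higher, where 12.3% of all genes were called higher and 3.94% lower. Injured arteries 3 and 1, which served to choose the members, remained in that fit, so nothing is read from this count either.

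The 5 libraries that the choice of members did not name, control arteries 1 to 3 and injured arteries 2 and 4, held low levels of most members and were fitted on their own. In an edgeR fit restricted to them, added after the data were seen, 15 members could be tested, 5 were called higher and 2 lower after injury, where 12.3% of all genes were called higher and 5.77% lower, 18.0% together. Called higher were Slc18a2, Gch1, Uchl1, Tubb3 and Nefm, and called lower were Hand2 and Slc6a2. These are genes of monoamine storage, cofactor synthesis, protein turnover and cytoskeleton on the rising side, and the reuptake transporter and a transcription factor on the falling side. Slc18a2 and Nefm had enough counts for this fit only through the injured arteries, and Slc6a2 only through the controls. Each thus entered through the group where it was higher, so nothing is read from the calls of these genes.

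Slc18a2 had 15, 0 and 7 counts in the controls and 116 and 94 in injured arteries 2 and 4, or 3.89 in log2 (standard error, SE, 0.74, edgeR, adjusted p = 0.00673). Gch1 rose from 0.983 to 1.73 CPM in the controls to 6.37 and 4.98 CPM, or 2.10 in log2 (SE 0.37, edgeR, adjusted p = 0.00477). For both genes the injured arteries lay above every control. Uchl1 had 17.5 and 19.9 CPM against 4.59 to 7.63 CPM, which is 1.55 on the log2 scale (adjusted p = 0.00306 from edgeR), and Tubb3 had 6.01 and 11.4 CPM against 1.51 to 2.70 CPM, or 2.15 (adjusted p = 0.00637 from edgeR). Nefm had 13 and 77 counts against at most 9 in the controls, so its log2 fold change of 3.46 rested mainly on injured artery 4. The enzyme genes Th and Dbh had too few counts for this test, with 3 and 5 counts of Th and 5 and 9 of Dbh in the injured arteries.

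Hand2 fell from 9.42 to 14.9 CPM in controls 1 to 3 to 3.19 and 3.51 CPM, or -1.80 in log2 (SE 0.29, edgeR, adjusted p = 0.00333). Slc6a2 fell from 1.31 to 2.49 CPM to 0.434 and 0.327 CPM, or -2.36 in log2 (SE 0.55, edgeR, adjusted p = 0.0156), at counts of 6 and 4 after injury. Ret, with -0.91, and Ddc, with -1.08, were lower in both injured arteries than in every control but were not called. Without overlap between the groups were 8 members on the higher and 4 on the lower side, where 54.5% of all genes with more than 3 counts had no overlap in these 5 libraries. Schwann cell and satellite glia genes moved in the same libraries, with 5 of 11 called higher, among them Sox10 at 28.6 and 87.1 CPM against 0.41 to 15.5 CPM, and their part was not tested.

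**Figure D4:**
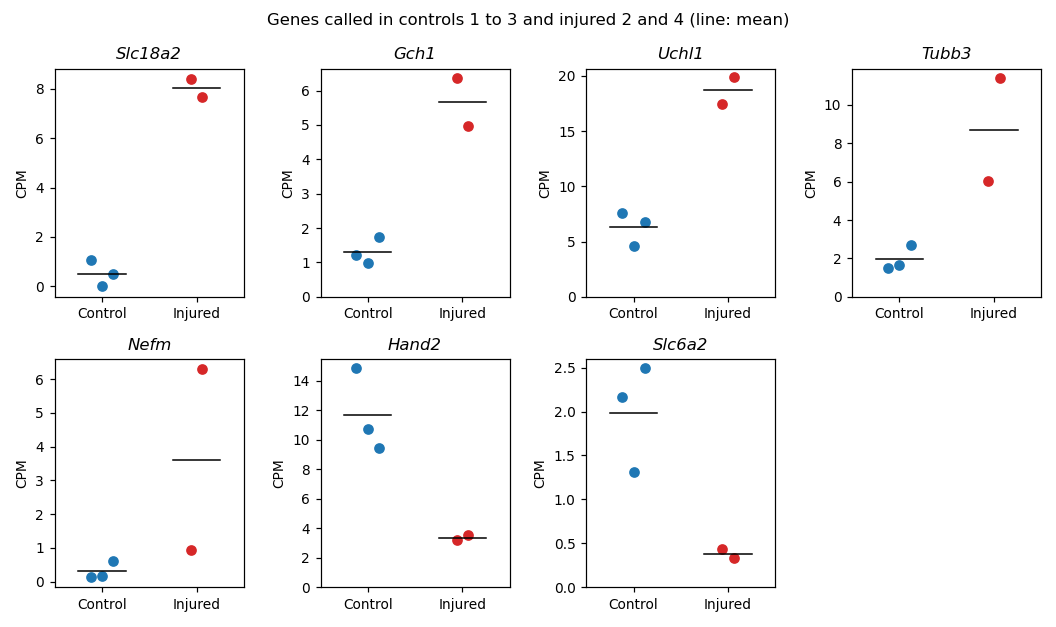
CPM of the 7 members called in control arteries 1 to 3 (blue) and injured arteries 2 and 4 (red), with 1 point per artery and a black line at the mean. The injured arteries lie above every control for Slc18a2, Gch1, Uchl1, Tubb3 and Nefm and below every control for Hand2 and Slc6a2.

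Among the other neuronal genes in these 5 libraries, 1 sympathetic gene rose and 3 fell of 8 tested, and 5 general neuron genes rose and 2 fell of 23 tested. Of all genes in this fit, 12.3% were called higher and 5.77% lower. Ngfr, the p75 neurotrophin receptor of neurons and Schwann cells, had 40.8 and 133 CPM against 1.47 to 2.70 CPM in controls 1 to 3, a log2 fold change of 5.48 (adjusted p = 0.000444 from edgeR's test). Gap43, a growth cone protein that Schwann cells also make, had 235 and 398 counts against 41, 19 and 47, or 3.24. Thy1, a surface glycoprotein of neurons and of fibroblasts, had 207 and 163 CPM against 18.1 to 27.3 CPM, or 3.04. Celf4, Kif5a and Sncg rose too, and Nsg1, Sv2c, Eml5, Gata2 and Isl1 fell. Celf4 had enough counts for this fit only through the injured arteries, and Eml5 and Isl1 only through the controls. None of the 9 sympathetic and 24 general neuron genes tested was called with all 8 arteries, 0 and 2 of them having an unadjusted p under 0.05. DESeq2 called 0 and 1, the latter Map1b.

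The receiving side of the sympathetic synapse was measured with 16 receptor genes for noradrenaline, ATP, neuropeptide Y and galanin, which had not been used in choosing the members. With all 8 arteries 11 were tested, 3 were called lower after injury and 0 higher, where 2.57% of all genes were called lower and 8.31% higher. P2rx1, the ATP-gated channel of arterial smooth muscle, had 251, 278, 242 and 99.9 CPM in the controls and 61.1, 58.4, 40.8 and 46.7 CPM in the injured arteries. The log2 difference was -2.07 (SE 0.31, edgeR, adjusted p = 0.00373), and the groups did not overlap. Adra1b, an alpha-1 adrenoceptor, had 10.8, 11.1, 9.21 and 3.96 CPM in the controls and 3.22, 1.45, 1.34 and 1.55 CPM in the injured arteries, or -2.20 in log2 (SE 0.42, edgeR, adjusted p = 0.0102). Control artery 4 was the lowest control for both, yet above every injured artery.

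Adra1a, another alpha-1 adrenoceptor, averaged 6.19 ± 3.08 CPM in the controls and 1.72 ± 0.965 CPM after injury (SD, n = 4 each), and edgeR's test gave -1.83 on the log2 scale at an adjusted p of 0.0416. The call held in 2 of the 8 fits that left out an artery, those without control artery 4 or injured artery 1, and was lost in the others at adjusted p-values of 0.0613 to 0.115 in edgeR's test. Adra1d, the remaining alpha-1 adrenoceptor, averaged 74.0 ± 32.1 CPM in the controls and 38.8 ± 13.2 CPM after injury (SD, n = 4 each) and was not called. Without control artery 4, which had 33.4 CPM, its log2 fold change was -1.17 and it was called. Adra2a, the alpha-2A adrenoceptor found on nerve endings and other cells, had 42.5 CPM in control artery 4, more than in any other library. Without that artery it was called higher after injury, with 1.55 on the log2 scale. Npy1r, the vascular receptor of neuropeptide Y, averaged 4.30 ± 1.40 and 5.28 ± 1.26 CPM (SD, n = 4 each), and Npy5r, Galr1 and Galr2 were listed at 0.

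Of the 8 smooth muscle genes, 5 were called lower in the same fit, with a median log2 fold change of -1.35. Their summed level was 37636 to 51155 CPM in controls 1 to 3, 17394 CPM in control artery 4 and 10600 to 16733 CPM in the injured arteries. The part of this in the fall of the receptors was not tested.

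Secreted factors that act on sympathetic axons were the final group, with 14 of 15 genes tested, 2 called higher and 1 lower. Of all genes in this fit, 8.31% were called higher and 2.57% lower. Lif, a cytokine that changes the transmitters of sympathetic neurons, averaged 2.04 ± 1.07 CPM in the controls and 5.59 ± 1.31 CPM after injury (SD, n = 4 each), and edgeR's test gave 1.44 on the log2 scale at an adjusted p of 0.0423. Of the 8 fits that left out an artery its call held in the 2 without control artery 3 or control artery 4, and in the others the adjusted p of edgeR's test was 0.0546 to 0.116.

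Ntn1, netrin-1, which guides sympathetic axons to arteries, fell from 110, 117, 115 and 51.4 CPM to 36.8, 21.0, 20.5 and 25.3 CPM, or -1.93 in log2 (SE 0.30, edgeR, adjusted p = 0.00449) without overlap. In control artery 4, Ntn1 was at 44.8% of its median in the other controls, against 36.3% to 43.7% for the smooth muscle genes. The part of the smooth muscle change in its fall was not tested. Ntf3, neurotrophin-3, averaged 25.6 ± 9.17 and 14.6 ± 4.32 CPM (SD, n = 4 each) and was not called, but was so without control artery 4, with -1.03. Sema3f and Sema3c, semaphorins that repel or steer axons, and Hgf were counted often too, at 223, 139 and 24.8 CPM in the controls and 136, 100 and 20.2 CPM after injury, and none passed both criteria. Gdnf, Artn, Bdnf and Sema3a, with log2 fold changes from -0.46 to 0.17, were not called.

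Noradrenaline that is not taken back into the nerve is cleared by other cells. Slc22a3, an extraneuronal monoamine transporter, fell from 19.4, 21.1, 17.4 and 9.02 CPM to 2.87, 0.869, 5.02 and 2.29 CPM, or -2.59 in log2 (SE 0.51, edgeR, adjusted p = 0.0115). In control artery 4, Slc22a3 was at 46.4% of its median in the other controls, and the part of the smooth muscle change in its fall was not tested. Aldh2, which oxidizes aldehydes formed from amines, averaged 531 ± 192 CPM in the controls and 221 ± 57.7 CPM after injury (SD, n = 4 each), with adjusted p = 0.025 by edgeR. Its call held in 2 of the 8 fits, those without control artery 4 or injured artery 1, and the others gave 0.0589 to 0.0861 as adjusted p in edgeR's test. Of the 5 clearance genes tested, 2 were thus called lower, where 2.57% of all genes were called lower. The monoamine oxidase genes Maoa and Maob, both X-linked, were listed at 0. Slc29a4, another monoamine transporter, followed the neuronal genes with 117 CPM in control artery 4 and 33.9 CPM in injured artery 3. Of 6 genes of the tetrahydrobiopterin pathway, 0 were called by edgeR with all arteries, 0 had an unadjusted p under 0.05, and DESeq2 called 0 too. Qdpr and Pcbd1, which recycle the cofactor, had 220 and 110 CPM in control artery 4 and 127 and 29.4 CPM in injured artery 3, above all other libraries.

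**Figure D5:**
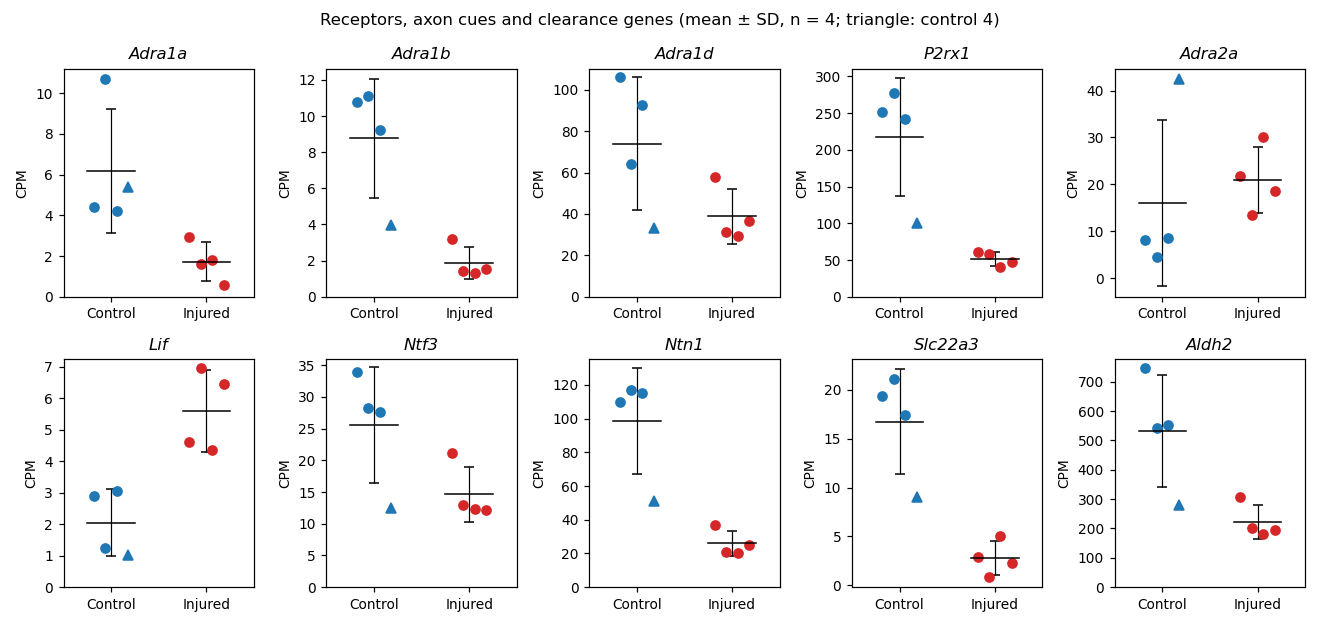
CPM of 10 receptor, axon cue and clearance genes in the control (blue) and injured (red) arteries, with 1 point per artery, a line at the mean and bars of 1 SD (n = 4), and control artery 4 as a triangle. Lif in all injured arteries lies above the controls, P2rx1, Adra1b, Ntn1 and Slc22a3 lie below them, and control artery 4 has the highest Adra2a.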

How the data were processed

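mRNA sequencing of 4 injured and 4 control arteries was used. The authors deposited raw counts of 37209 gene symbols. HISAT2 2.0.4 is named in the submitters' processing notes, and the counting tool, genome build and strand are not given in the sources used here, so overlapping or near-identical genes are uncertain. Replicates were separate arteries, but whether a shared number marks a rat is not stated.

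Counts were analysed with edgeR 4.0.16 in R 4.3.3 (filterByExpr, TMM factors, quasi-likelihood test without a covariate, Benjamini-Hochberg FDR under 0.05 and a fold change above 2), with DESeq2 1.42.0 as an alternative, since the paper used DESeq. The fit was tested on simulated data. Standard errors were taken from the F statistic, and intervals of ratios of 2 libraries are exact (Clopper-Pearson). The 8 library totals lay between 11459632 and 16658089 counts.

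The members and lists were chosen with earlier results of these data known. Named are the members, called genes of the other lists, the 4 most abundant of the lists described in detail and the 15 most similar genes. Other genes were named after their values were seen. Pseudocounts of 0.1 CPM served the heatmap and the similarity only. Alternatives were RLE factors, library totals, no filter, DESeq2, leaving out each artery, the replicate block and, added later, the 5 libraries. Some genes of the lists count in the totals but are not reported here by name.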

Additional observations from a re-analysis of the deposited data

Results flagged for a closer look

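For the 28 members with more than a single count, each in the control and in the injured arteries (56 groups of 4 arteries), the gap of the highest or lowest artery to the nearest other, as a share of the range in CPM, was above Dixon's 95% critical value for 4 samples in 55. Chance flags about 1 in 20 groups, here 2.8, but the members were chosen for standing out, so this count describes that choice.

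In the controls, control artery 4 was that artery for 27 members, at 0.88 for Gal, 0.96 for Rbfox3, 0.98 for Gch1, 0.99 for Ret and 1.0 for the other 23. In the injured arteries it was injured artery 3 for 28 members. The share was 0.84 for Gch1, 0.87 for Rbfox3, 0.9 for Scg2, 0.91 for Dbh, Slc6a2, Chgb and Chrna3, and 0.92 for Ddc, Nefm and Chrnb4. It was 0.93 for Nefl, Nefh, Syt1 and Snap25, 0.94 for Th, Phox2a, Chga, Prph, Ina, Ret and Elavl4, 0.95 for Stmn2, Stmn3 and Tubb3, 0.96 for Hand2 and Uchl1, and 0.97 for Gal and Slc18a2. The exception was Hand2 in the controls.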

How the results depend on the processing

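Without control artery 4, the members called rose from 0 to 7 (Gch1, Nefl, Nefm, Slc18a2, Syt1, Tubb3 and Uchl1), and without injured artery 3, 1 was called, Hand2. Both fits keep arteries that served to choose the members. With each artery left out in turn, the calls numbered 0 to 7 for members, 2 to 6 for receptor genes, 2 to 4 for axon cue genes, 0 to 3 for general neuron genes and 0 to 2 for other sympathetic genes, and for every list the maximum belonged to the fit without control artery 4. In the 5 libraries not named by the choice of members, 7 of 15 members tested were called, 5 higher and 2 lower. Among them Slc18a2, Nefm and Slc6a2 had passed the filter of that fit only through the group where each was higher. Of 10 receptor genes tested there, 2 were called higher and 5 lower. Of 23 general neuron genes, 5 were called higher and 2 lower, and of 8 other sympathetic genes 1 higher and 3 lower. Of all genes in that fit, 12.3% were called higher and 5.77% lower. DESeq2 called 1 general neuron gene. It gave no p-value to 27 members because of an outlying count. The median level of members in injured artery 3 as percent of control artery 4 was 31.3% with RLE factors and 34.9% with library totals only, against 32.5%. Library totals only moved the median log2 fold change of all genes by 0.176. Adra1a was not called with library totals only or without the filter, and Lif was not called without the filter.

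Across these 8 fits the log2 fold change ranged from -0.79 to 2.59 for Gch1, -4.16 to 6.43 for Slc18a2, -5.86 to 5.03 for Slc6a2, -4.19 to 7.85 for Tubb3, -3.89 to 4.77 for Uchl1, -4.48 to 8.32 for Nefm, -1.38 to 5.99 for Ngfr, -1.64 to 3.57 for Thy1 and -2.66 to 6.10 for Gap43. The maximum came without control artery 4, the minimum without injured artery 3, and Gch1 (0.01 without injured artery 1) and Gap43 (0.11, 0.18 and 0.15 without injured arteries 1, 2 and 4) were also above 0 elsewhere. In the 5 libraries the sign turned to positive for Gch1 (2.10), Slc18a2 (3.89), Tubb3 (2.15), Uchl1 (1.55), Nefm (3.46), Ngfr (5.48), Thy1 (3.04) and Gap43 (3.24).

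With the replicate number as a block, the sign turned to positive for Gch1 (1.56), Slc18a2 (4.13), Slc6a2 (1.20), Tubb3 (3.80), Uchl1 (2.01), Nefm (5.23), Ngfr (4.47), Thy1 (2.50) and Gap43 (3.55), none of them called. Under the block 0 members, 2 receptor genes (Adra1b and P2rx1), 2 axon cue genes (Ntn1 among them) and 0 genes of both other neuronal lists were called. Deviations from the group means correlated at 0.301, 0.45, -0.52 and -0.416 between arteries of the same number. Of 4 injured arteries, 2 correlated best with the control of their own number. Control artery 4 and injured artery 3 shared high levels of the members, so these correlations cannot decide whether the numbers mark pairs. The numbers were not taken as pairs because no label states that a shared number marks a rat. Adra1b, P2rx1, Ntn1 and Slc22a3 were called in all 8 fits without an artery. Beyond the arteries left out, the cause was not tested.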
